A study of Mus musculus with 9 samples.

Results

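Some mouse genes keep several unspliced introns in their polyadenylated RNA, and 202 such genes, with 680 introns, are described here. The members were chosen by the presence of a value at 2 h in the authors' deposited table, which the authors gave only for introns of 1 class, called detained introns by the study. A gene was taken when it had 3 or more of them. The 680 introns were 19.7% of the 3454 introns with a 2 h value, and the 202 genes were 8.32% of the 2427 genes that held them. The whole table listed 22228 introns of 7016 genes.

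Introns were measured by strand-specific, paired-end sequencing of polyadenylated RNA from v6.5, a mouse embryonic stem cell line. The Clk kinase inhibitor KH-CB19, in the solvent dimethyl sulfoxide (DMSO), or as much DMSO without it was added, and cells were lysed at once (0 h) or 2 h later. The groups were KH-CB19 and DMSO at 0 h and KH-CB19 and DMSO at 2 h, 4 in all, with 2 libraries each that the labels call independent biological replicates. All 4 groups were the same cell line without any engineered allele, and all received DMSO.

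A detained intron stays in a polyadenylated transcript that is otherwise spliced, and such transcripts are known to be held in the nucleus until the intron is removed or the RNA is degraded. Clk kinases phosphorylate SR proteins, splicing factors rich in arginine and serine, and thereby change which splice sites are used. When a gene keeps several introns, they can lie next to each other on both sides of 1 exon or far apart, and they can respond to the inhibitor together or separately.

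The deposited values were group means over the 2 libraries, so no spread between replicates can stand beside them. For single introns, "rose" and "fell" mean that the authors' deposited table lists an adjusted p below 0.05. Unadjusted p-values were not used here, so no count at an unadjusted threshold stands beside a count of 0. Errors given here as a counting SE come from the number of reads alone. RNA integrity numbers lay between 8.8 and 9.1 for KH-CB19 at 2 h and were both 9.3 for DMSO at 2 h, and the part of RNA quality in the results was not tested. The 2 h means of the 680 introns summed to 72363 normalised reads in KH-CB19 and 68049 in DMSO, and the median intron had a mean of 58.6 over both groups. Of 12 stem cell marker genes, 11 were in the table, and of 18 markers of other cell types only Fn1 was. Being listed is not a measure of expression, since the listed introns of Dppa5a had at most 0.5 expected reads in DMSO at 0 h. Because these are bulk samples, fewer cells with an unspliced transcript and fewer such transcripts per cell cannot be told apart. No expected reads were given at 2 h. In the 2 h ratios, a change in the amount of a gene's RNA and a change in its splicing therefore cannot be told apart.

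The exons that separate neighbouring 2 h introns are shown first, because they are where a pair of these introns meets. Each sequence is an exon of the GENCODE annotation on GRCm38, written 5′ to 3′ on the gene's strand, and the capitals mark its first base and its last 3 bases, the exon sides of the splice sites. The Clk1 and Clk4 exons lie between introns that fell on both sides. Each is 91 bases long, they are identical at 85 positions and differ at 6, and in Clk1 this exon is known to be skipped in part of the transcripts.
Clk1, between introns 5 and 7, chr1:58420121-58420211, minus strand: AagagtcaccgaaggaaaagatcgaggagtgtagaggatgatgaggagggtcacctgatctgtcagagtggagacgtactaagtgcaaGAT
Clk4, between introns 7 and 10, chr11:51273078-51273168, plus strand: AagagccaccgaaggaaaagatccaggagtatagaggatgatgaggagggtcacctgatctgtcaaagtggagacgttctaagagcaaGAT
Zfml, between introns 31 and 33, chr6:83981684-83981785, plus strand: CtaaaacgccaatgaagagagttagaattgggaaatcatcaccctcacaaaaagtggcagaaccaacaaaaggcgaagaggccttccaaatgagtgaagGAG
Nup133, between introns 18 and 19, chr8:123916284-123916383, minus strand: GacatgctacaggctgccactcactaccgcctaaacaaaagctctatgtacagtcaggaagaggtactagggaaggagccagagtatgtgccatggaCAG
Dock6, between introns 25 and 26, chr9:21829474-21829578, minus strand: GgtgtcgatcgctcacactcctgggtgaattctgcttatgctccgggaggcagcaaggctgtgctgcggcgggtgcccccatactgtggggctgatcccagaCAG
Tmem131, between introns 36 and 38, chr1:36796162-36796324, minus strand: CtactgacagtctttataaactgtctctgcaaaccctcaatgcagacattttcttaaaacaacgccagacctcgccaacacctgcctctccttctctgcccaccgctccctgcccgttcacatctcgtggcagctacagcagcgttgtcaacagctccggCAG
The introns on both sides of the Zfml exon fell, and those on both sides of the Nup133, Dock6 and Tmem131 exons rose. Some of the separating exons were far shorter, and 4 of the shortest are shown because a sequenced fragment can reach across them from 1 intron into the next.
Spna2, between introns 56 and 57, chr2:30027631-30027648, plus strand: AacgtatctcctcgaCGG
Nap1l1, between introns 13 and 14, chr10:111493550-111493569, plus strand: TtcctgagaatggcgatCTG
Llgl2, between introns 30 and 34, chr11:115854547-115854575, plus strand: GaactcaaagagccaaagtgatggagATG
Ptprf, between introns 24 and 25, chr4:118218012-118218044, minus strand: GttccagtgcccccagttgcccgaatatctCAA
These exons had 18 bases in Spna2, 20 in Nap1l1, 29 in Llgl2 and 33 in Ptprf, and 8 of the separating exons had at most 35 bases. Whether reads that span an exon were counted in both introns is not given in the sources used here.

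Most of the 202 genes passed the minimum with nothing to spare. There were 142 genes with 3 such introns, 48 with 4, 10 with 5 and 2 with 6. Just outside the minimum lay 549 genes with 2 and, beyond these, 1676 genes with 1. Among the genes with 6 was Spna2, which encodes the alpha chain of non-erythroid spectrin, a scaffold under the cell membrane. The 10 genes with 5 included Fn1 (fibronectin), Dst (dystonin, a linker of the cytoskeleton), Ddb1 (a DNA damage binding protein), Ep400 (a chromatin remodeller), Ubr4 (a ubiquitin ligase) and Srrt (a partner of the nuclear cap binding complex). The other 4 were Lrpprc, an RNA binding protein of mitochondria, Stag3, a meiotic cohesin subunit, Fam48a and Zfc3h1. The genes lay on 20 chromosomes, with the most, 25, on chromosome 11.

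Member genes had many other introns that the authors did not put in the class. The table listed 1746 introns of these genes, a median of 8 per gene, and 1066 of them had no 2 h value. In only 4 genes did every listed intron have one. In DMSO at 0 h, the authors' deposited table gave the 680 member introns a median of 3.67-fold of the expected reads and called 670 of them above expectation at the same threshold, against 28.2% of all 21568 introns with a value. These values come from the same contrast that may have defined the class, so they are given as a description. The 1020 other introns of the same genes with a value had a median of 0.871-fold, with 79 above and 290 below expectation in the authors' deposited table. Over all listed introns without a 2 h value the median was 1.23-fold. Introns left out of the class may have been left out by this same contrast, so these values too are only a description.

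The member introns lay toward the 3′ end of genes with many introns. Their median length was 1252 bp, against 1476 bp in genes with 2 and 1760 bp in genes with 1 such intron, and 1655 bp for the other listed introns of the member genes. By annotation, 594 of the 680 could be matched, and 546 of these (91.9%) lay between coding exons, against 93.0% of all matched 2 h introns and 95.9% of the other listed introns of the member genes. A further 2 lay in a 5′ UTR, 5 in a 3′ UTR and 41 in noncoding transcripts. The median member intron lay 78.1% of the way along its transcript's introns, against 58.0% for the other listed introns of the same genes. In the last of 3 equal parts of the transcript lay 63.9% of member introns and 41.2% of the others, and in the first part lay 8.77% and 26.6%. Among genes with 2 such introns the median position was 73.1%, and among genes with 1 it was 68.8%. Transcripts of the member genes had a median of 21.5 introns, against 16 in genes with 2 and 12 in genes with 1. Longer genes have more introns that can pass the minimum of 3, so the last difference comes in part from the rule.

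From 1 member intron to the next, a step to the adjacent intron was the most frequent size of step, and long jumps were frequent too. The 202 genes gave 478 steps. The intron number in the table grew by 1 in 132 steps (27.6%), by 2 in 99, by 3 to 5 in 114 and by more than 5 in 132, and 1 step in Dnajc13 joined introns that overlap. The median step was 3 and the largest was 110, in Ubr4. The table numbers introns over alternative transcripts, so introns on both sides of 1 exon can differ by more than 1 in number, as introns 5 and 7 of Clk1 do. Both introns could be matched to the annotation in 376 steps, and in 178 of these (47.3%) they were separated by a single exon. Of these 178, the number grew by 1 in 111, by 2 in 47 and by more than 2 in 20. In genes with 2 such introns, 175 of 444 matched steps (39.4%) were separated by a single exon. By number, 144 of their 549 steps (26.2%) were steps of 1, close to the 27.6% of the member genes. Introns with a 2 h value were 38.9% of the listed introns in the member genes and 32.6% in genes with 2. The shares of steps were not corrected for this.

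**Figure D1:**
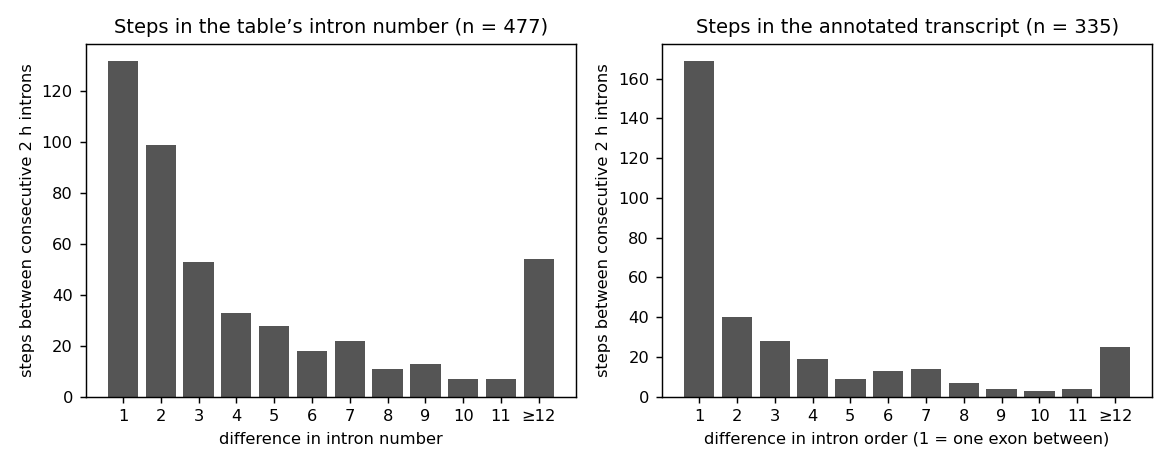
Sizes of the steps between consecutive 2 h introns of the 202 genes, in the intron numbers of the table (left) and in the intron order of 1 annotated transcript (right); bars give the number of steps. Steps of 1 were the most frequent in both, with 132 by number and 169 of 335 by order.

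A shared exon was present in 138 of the 202 genes (68.3%). The longest chain of introns joined by single exons held 2 introns in 111 genes, 3 in 22 and 4 in 5 genes, and 64 genes had none. The 5 genes with a chain of 4 were Ints4 (a subunit of the Integrator complex), Nup88 (a nuclear pore protein), Spna2, Utp20 (a factor of ribosome assembly) and Zfc3h1 (a factor of nuclear RNA decay). In Ints4, Utp20 and Zfc3h1 the 4 introns also had consecutive numbers. Among 739 pairs of annotated neighbours that the table listed for the member genes, both introns had a 2 h value in 179, 1 of them in 288 and neither in 272. A listed neighbour of a member intron was itself a member in 55.4% of cases, while 38.9% of all listed introns of these genes were members. The first share covers only introns in annotated neighbour pairs and the second covers all listed introns. The difference between them is therefore not a measure of adjacency.

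The distance between consecutive member introns was short. Its median was 555 bases, with quartiles of 120 and 4307 bases, against a median of 1052 bases in genes with 2 such introns. More such introns in a gene leave less room between consecutive ones, so this difference may come in part from the rule. That part was not tested. The 178 separating exons had a median length of 117.5 bases and reached from 18 to 975 bases. Of the 160 that were coding over their whole length, 79 (49.4%) were a multiple of 3 bases long, against 40.6% of 4679 internal coding exons of the same transcripts. In genes with 2 such introns, 54 of the 159 wholly coding exons that separated the pair (34.0%) were a multiple of 3. Of the 160 exons of the member genes, 56.9% ended in AG and 41.9% began with G, against 58.8% and 49.3% of the 4679 internal coding exons. No test was made of these shares.

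The arrangements ranged from compact to widely spread. The 4 introns of Utp20 were its introns 57 to 60 of 61 by annotation and together spanned 3923 bases on mm9, chr10:88210167-88214089, minus strand. In Spna2, introns 23 and 25 were joined by an exon of 60 bases, and 24901 bases farther on introns 56, 57, 60 and 61 followed each other across exons of 18, 63 and 55 bases. Dst had its first member intron 99559 bases before the next, and its last 4 were introns 97, 98, 99 and 101 of 102 by annotation. Ubr4 had 3 near its start and 2 at its end, 107028 bases apart. No exon shared by neighbouring member introns was found in Stag3.

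**Figure D2:**
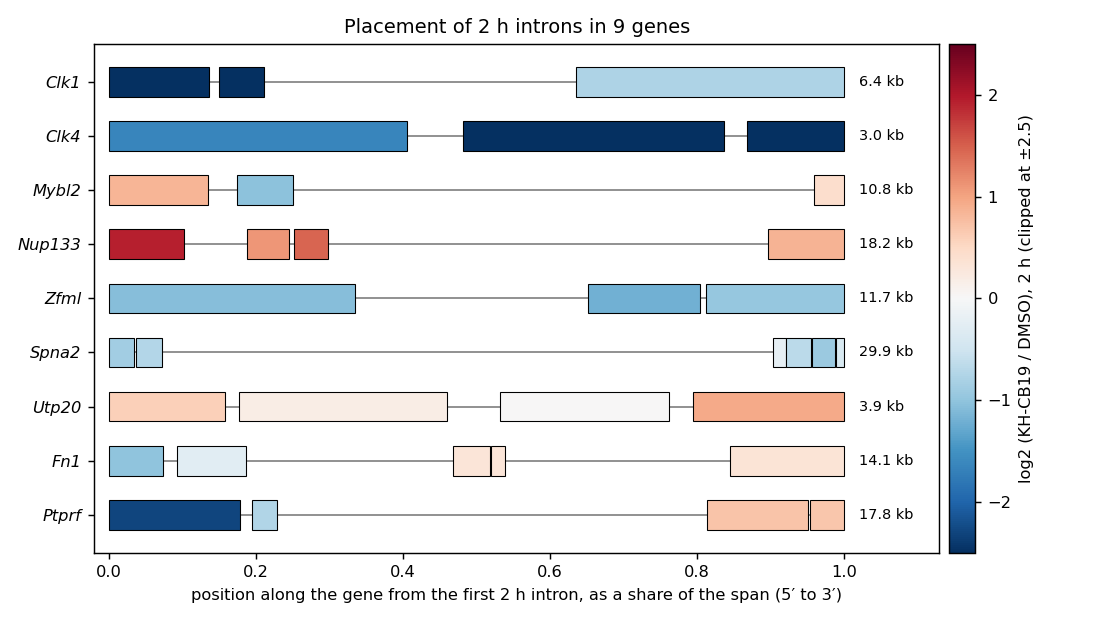
Placement of the 2 h introns in 9 genes, drawn 5′ to 3′ from the first to the last of them; boxes are introns, coloured by the authors' log2 of KH-CB19 over DMSO at 2 h, and the distance covered is given at the right. The 4 introns of Utp20 follow each other, while Spna2 and Ptprf have separate clusters, and Mybl2 holds neighbours of opposite colour.

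After 2 h of KH-CB19, the authors' deposited table called 43 of the 680 introns higher (6.32%) and 39 lower (5.74%). Over all 3454 introns tested the shares were 5.47% higher and 4.17% lower, or 9.64% in either direction, against 12.1% of the member introns. Of the 400 member introns whose mean reached 50 reads, 42 rose (10.5%) and 26 fell (6.5%) by the authors' deposited table. Over all introns tested, 2026 had such a mean, and the share called among them was not computed. The shares at 50 reads thus have no background at the same read number. The median log2 ratio of KH-CB19 over DMSO was -0.02 in the member introns and -0.00 over all introns tested. In 140 of the 202 genes no intron was called, in 47 exactly 1 was, and in 15 at least 2 were. Of these 15 genes, 9 had introns that all rose, 5 had introns that all fell, and Mybl2 had both.

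**Figure D3:**
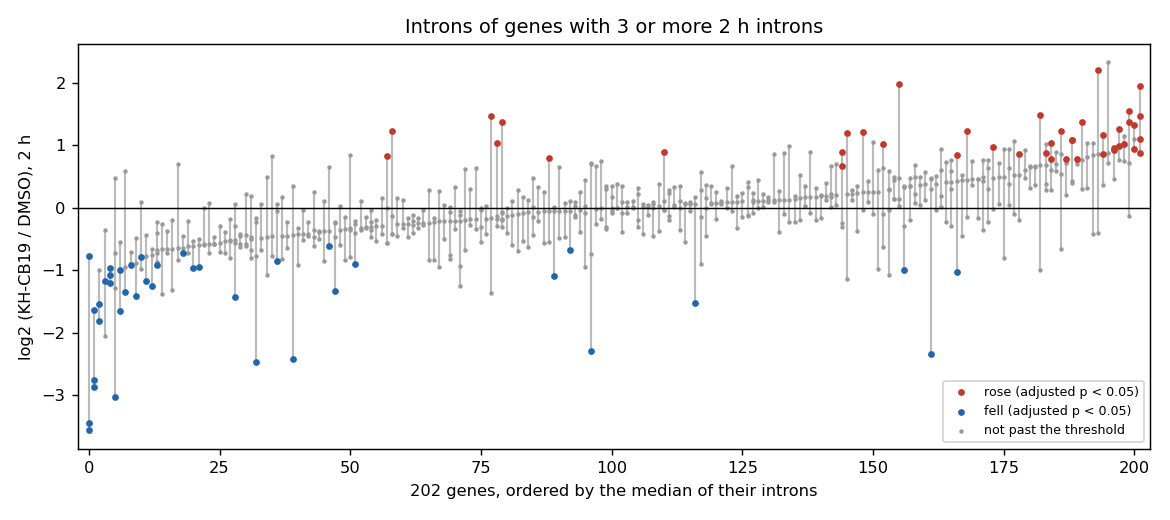
The authors' log2 ratio of KH-CB19 over DMSO at 2 h for all 680 introns, with the 202 genes ordered by the median of their introns; grey lines run from a gene's lowest to its highest intron, red points rose and blue points fell. Called introns sit at the ends of long grey lines in many genes, and Clk1 and Clk4 lie at the left end.

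The kinase genes Clk1 and Clk4, whose products KH-CB19 inhibits, had all 6 of their member introns lower. The introns of Clk1 lie within chr1:58471529-58477926 on mm9 (minus strand), between coding exons. Its intron 5 had a mean of 41.6 normalised reads in KH-CB19 and 493 in DMSO, and intron 7 had 17.5 and 189. Intron 11 of Clk1 had 272 in KH-CB19 and 466 in DMSO. For introns 5, 7 and 11 the log2 ratios listed in the authors' deposited table were -3.56 (adjusted p 4.02e-44), -3.44 (adjusted p 5.21e-24) and -0.78 (adjusted p 0.00234). The pair around the 91-base exon thus differed by 0.13 on the log2 scale, while intron 11, 2721 bases away, differed from intron 7 by 2.66. Those of Clk4 lie within chr11:51084098-51087061 (mm9, plus strand). In Clk4, intron 6 had 17.0 in KH-CB19 and 53.2 in DMSO, intron 7 had 28.8 and 195, and intron 10 had 12.3 and 90.4. The log2 ratios that the authors' deposited table lists for Clk4 were -1.65 (adjusted p 0.00225), -2.76 (adjusted p 2.06e-18) and -2.87 (adjusted p 4.8e-11) for introns 6, 7 and 10. Introns 7 and 10, around the exon printed above, differed by 0.11, and intron 6 differed from intron 7 by 1.12.

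Zfml, Orc3 and Rbm25 were the other genes with 2 or more introns that fell. Zfml (Zfp638 in the annotation), which encodes a zinc finger protein of the nucleus, had all 3 introns lower. Its introns 26, 31 and 33 had 40.1, 49.3 and 70.4 reads in KH-CB19, and 84.5, 114 and 137 in DMSO. The authors' deposited table lists -1.07, -1.20 and -0.96 as their log2 ratios (adjusted p 0.0133, 0.0013 and 0.00597). Orc3, a subunit of the origin recognition complex of DNA replication, had 8.75 reads in KH-CB19 and 30.9 in DMSO in intron 5, and 19.01 and 55.3 in intron 16. These introns had log2 ratios of -1.82 (adjusted p 0.013) and -1.54 (adjusted p 0.00355) by the authors' deposited table, and intron 6 between them had -1.005 (adjusted p 0.101). Rbm25, an RNA binding splicing regulator, had log2 ratios of -0.997, -0.55 and -1.66 in introns 18, 20 and 27, with adjusted p of 0.0465, 0.248 and 0.000149 by the authors' deposited table.

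Nup133 was the single gene in which 4 introns rose. It encodes a scaffold protein of the nuclear pore, and its introns, all between coding exons, lie within chr8:126426588-126444747 (mm9, minus strand). Its introns 16, 18, 19 and 28 had 192, 91.4, 127 and 116 reads in KH-CB19, and 49.9, 42.7, 46.1 and 63.3 in DMSO. By the authors' deposited table its log2 ratios were 1.94, 1.10, 1.46 and 0.87 (adjusted p 3.87e-06, 0.00815, 2.83e-05 and 0.0249). All 4 of its 2 h introns were called, and they were spread over 18160 bases, with only introns 18 and 19 joined by an exon.

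Rises of 2 introns were found in Actn4, Adss, Dock6, Mbtps1, Mtf2, Ncor1, Sltm and Tmem131. Tmem131 had 402 reads in KH-CB19 and 138 in DMSO in intron 36, and 117 and 45.3 in intron 38, across the exon printed above. The authors' deposited table lists their log2 ratios as 1.54 and 1.36 (adjusted p 1.13e-10 and 0.000186), while intron 32 of the same gene had -0.13 (adjusted p 0.886). Dock6, an activator of small GTPases, had 0.89 and 0.66 in introns 25 and 26 (adjusted p 0.0382 and 0.0161 by the authors' deposited table), and -0.24 and -0.31 in introns 50 and 58, at least 21954 bases downstream. Mtf2, a cofactor of the Polycomb repressive complex, had 1167 reads in KH-CB19 and 522 in DMSO in intron 9, a log2 ratio of 1.16 (adjusted p 2.57e-08) by the authors' deposited table. Sltm, an RNA binding relative of the nuclear matrix protein SAFB, had 0.94, 1.09 and 1.33 in introns 7, 12 and 13, as the authors' deposited table lists them (adjusted p 0.0172, 0.0719 and 0.000116). Ncor1, a transcriptional corepressor, had 0.28, 0.60, 1.04 and 0.78 in introns 26, 53, 55 and 61, from the authors' deposited table (adjusted p 0.636, 0.101, 0.0287 and 0.0045). In Actn4 (an actin crosslinker), Adss (an enzyme of adenine nucleotide synthesis) and Mbtps1 (a protease of the Golgi), every member intron had a positive log2 ratio, from 0.39 to 1.25.

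**Figure D4:**
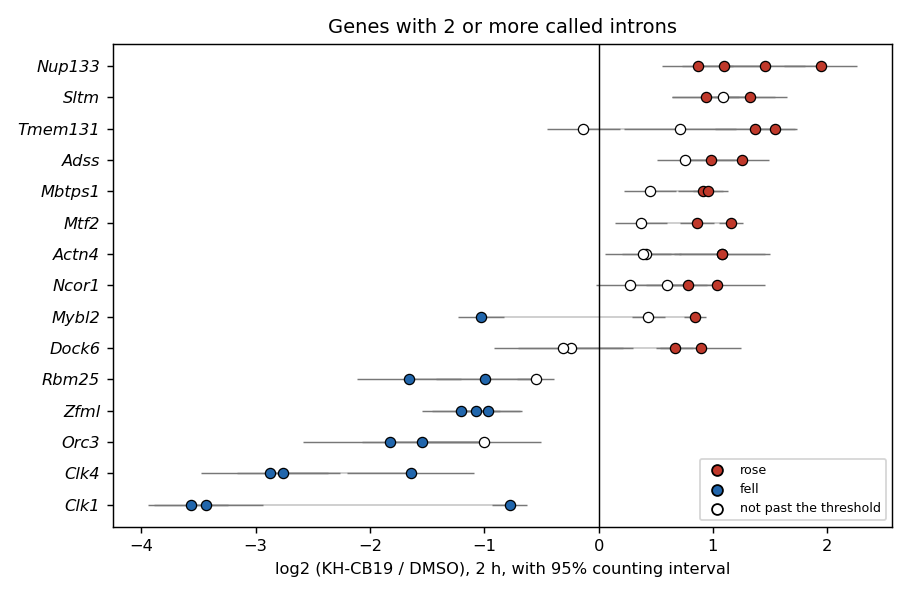
The authors' log2 ratio of KH-CB19 over DMSO at 2 h for every 2 h intron of the 15 genes with at least 2 called introns; filled points were called, and grey bars are 95% intervals from read counts alone. Only Mybl2 has called introns on both sides of 0.

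Mybl2, which encodes a transcription factor of the cell cycle, was the only gene with called introns in both directions. They lie within chr2:162898651-162909489 (mm9, plus strand). Its intron 15 had 1162 reads in KH-CB19 and 648 in DMSO, and intron 18 had 146 and 297. Their log2 ratios, from the authors' deposited table, were 0.84 (adjusted p 0.00355) and -1.03 (adjusted p 0.00014). These introns lie on both sides of 1 coding exon of 423 bases, and their log2 ratios differed by 1.87, with counting SEs of 0.05 and 0.10. Intron 28 of the same gene had 451 in KH-CB19 and 334 in DMSO, a log2 ratio of 0.43 (adjusted p 0.156) by the authors' deposited table.

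The direction of the log2 ratio was compared over the introns of each gene. In 39 genes every member intron had a log2 ratio above 0, in 44 every one was below 0, and in 119 both signs occurred, so 41.1% of genes were of one sign. That share falls with the number of introns that must match, and it was 57.9% in genes with 2 such introns, 43.7% in genes with 3 and 35.4% in genes with 4. The same share was close to this at 0 h, after centring on the median of all introns. There it was 36.1% of the 202 genes and 59.0% of 541 genes with 2 such introns. At 0 h, however, 18 of the 202 genes had every intron above 0 and 55 had every one below. Only 38.5% of the member introns were above 0 there, so a common shift enters the share at 0 h. The 2 shares are therefore not a like measure of agreement within genes. At 2 h, the difference between a gene's highest and lowest intron had a median of 0.71 on the log2 scale, with quartiles of 0.44 and 1.12. It was above 1 in 61 genes and below 0.5 in 62. In 91 genes (45.0%) the spread of the introns lay within the 95% limit of counting error. Of the variance of the log2 ratio over all 680 introns, 39.9% lay between genes, with an SD of 0.43 between genes and of 0.53 within them. Without Clk1 and Clk4, a comparison added after the data were seen, the share was 33.6%, and in the 140 genes with no called intron it was 29.5%. For genes with 2 such introns it was 23.6%. In the 54 genes whose introns all had at least 50 reads the share was 58.7%. Clk1 is among these genes, and the share was not computed without it. In the 239 genes with 2 such introns that both had at least 50 reads it was 28.9%.

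In the 47 genes with a single call, the other introns had smaller ratios, and the called intron was picked out by its ratio and p. These genes had 120 other introns, of which 71 (59.2%) had the sign of the called one. With the sign set by the called intron, the median log2 ratio of the others was 0.23, against a median size of 1.17 for the called introns. All other introns shared the sign in 18 of the 47 genes. Kdm3a, a histone demethylase, had 102 reads in KH-CB19 and 22.2 in DMSO in intron 21, and the authors' deposited table gave log2 2.20 (adjusted p 2.44e-07), while its introns 16 and 25 had -0.40 and 0.86 (adjusted p 0.488 and 0.381). Ptprf, a receptor tyrosine phosphatase, had -2.29 in intron 11 (adjusted p 2.08e-06) by the authors' deposited table, -0.75 in intron 12 across an exon of 306 bases, and 0.72 and 0.70 in introns 24 and 25. Ncapg, a condensin subunit, had -2.47 in intron 17 (adjusted p 1.67e-05) by the authors' deposited table, and -0.17, -0.77 and -0.23 in its introns 14, 16 and 20. The widest range, 3.50, was that of Mdn1, a factor of ribosome assembly, whose intron 98 fell on few reads, with 2.05 in KH-CB19 and 16.7 in DMSO (log2 -3.03, adjusted p 0.00941 by the authors' deposited table).

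Among genes whose introns all had at least 50 reads, the widest ranges were those of Clk1, Kdm3a, Mybl2, Nol10 and Fn1, and narrow ranges were found in Zfp57, Taf15, Pkm2 and Cabin1. Nol10 (a nucleolar protein) had 130 reads in KH-CB19 and 26.0 in DMSO in intron 13, a log2 ratio of 2.32 that was not past the threshold (adjusted p 0.387 by the authors' deposited table), with a counting SE of 0.22. Fn1 had log2 ratios of -1.01 (adjusted p 0.00763) in intron 34 and -0.29, 0.33, 0.33 and 0.35 in introns 37, 44, 45 and 49 in the authors' deposited table. Zfp57, a zinc finger protein that protects imprinted DNA methylation, had 1040, 404 and 621 reads in KH-CB19 and 987, 387 and 574 in DMSO, and its log2 ratios of 0.08, 0.06 and 0.11 spanned 0.05. Taf15, an RNA binding protein of the FET family, had log2 ratios of 0.77, 0.75 and 0.70 in introns 12, 35 and 49, with adjusted p of 0.000363, 0.101 and 0.107 by the authors' deposited table, so that only the first passed. At 0 h the centred log2 ratios of KH-CB19 over DMSO for these Taf15 introns were -0.28, 1.44 and 1.64. Pkm2, the pyruvate kinase of muscle and growing cells (Pkm in the annotation), had -0.05, 0.06 and 0.08, and Cabin1, a calcineurin inhibitor, had -0.24, -0.32 and -0.17.

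Pairs of introns joined by 1 exon were set beside pairs farther apart, with no test of the difference. The median difference of log2 ratios was 0.35 over the 178 steps across 1 exon and 0.46 over 197 matched steps without it. The sign was the same in 125 (70.2%) and in 115 (58.4%) of these steps, and the Pearson correlation of both ratios was 0.59 and 0.28. These correlations are a description over pairs that share their gene and all libraries, and neighbours may share fragments that span the exon. In steps whose introns both had at least 50 reads, the median differences were 0.30 and 0.31 and the correlations 0.72 and 0.42. The correlations across 1 exon include the pairs of Clk1 and Clk4, whose ratios lay far below 0, and were not computed without them. The steps farther apart include that between introns 7 and 11 of Clk1 (-3.44 and -0.78), and their correlations were not computed without it either. Both introns were called in 7 steps across 1 exon, in the same direction in Clk1, Clk4, Dock6, Nup133, Tmem131 and Zfml and in opposite directions in Mybl2. In another 28 such steps only 1 of the neighbours was called.

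**Figure D5:**
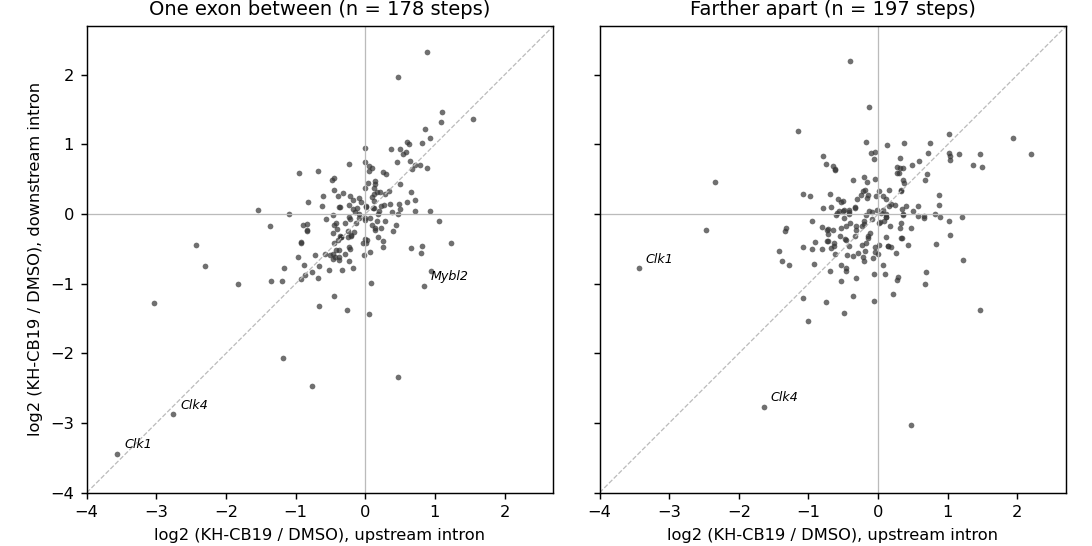
The authors' log2 ratio of KH-CB19 over DMSO at 2 h of consecutive 2 h introns, upstream on the x axis and downstream on the y axis, for 178 steps across 1 exon (left) and 197 other matched steps (right). The correlation was 0.59 on the left and 0.28 on the right; on the left the Clk1 and Clk4 pairs are far below 0 and Mybl2 is off the line.

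The spread of the log2 ratio over the member introns was smaller at 0 h, with an SD of 0.30, than at 2 h, with an SD of 0.68. After centring on the median of all introns, the log2 ratio of KH-CB19 over DMSO had a median of -0.09 in the 675 member introns with both values, and 38.5% were above 0. The median was -0.04 over all introns with a 2 h value and 0.01 over listed introns without one. DMSO reads at 0 h are the denominator of this ratio and may have defined the class. The position of the member introns below 0 is therefore only a description. Without centring, the median over all introns was -0.32 and 9.33% of the member introns were above 0. In 4 introns of 3 genes the centred ratio exceeded 1 in size, namely intron 12 of Pcbp2, introns 35 and 49 of Taf15 and intron 7 of Upf1, while 70 introns of 53 genes did so at 2 h. Between genes lay 20.8% of the variance at 0 h. Across the 202 genes, the mean ratios at 0 h and at 2 h had a Pearson correlation of 0.14 and a Spearman correlation of 0.06, as a description over genes from different libraries of the same cell line.

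By function, proteins of the nuclear pore and of nuclear transport gave the most member genes. Of 32 genes on that list with a 2 h intron, 12 were members, with 40 introns of which 6 rose and 1 fell, and the median log2 ratio was 0.05. Besides the 4 introns of Nup133, intron 32 of Nup210 rose (1.47, adjusted p 0.000122) and intron 25 of Ipo7 rose (1.03, adjusted p 0.0094), and intron 23 of Nup153 fell (-1.35, adjusted p 0.000225), all in the authors' deposited table. The 4 introns of Nup88, joined by single exons, had 0.14, 0.48, 0.14 and 0.43 and did not pass the threshold. Cytoskeleton and motor genes came next, with 8 of 30 as members, 32 introns, 2 that rose and 3 that fell. Among these, intron 60 of Spna2 fell (-0.92, adjusted p 0.0486), and all 6 introns of Spna2 had log2 ratios below 0, from -0.92 to -0.23 in the authors' deposited table. Intron 94 of Macf1, a linker of actin and microtubules, had 18.8 reads in KH-CB19 and 95.2 in DMSO and fell by 2.34 on the log2 scale (adjusted p 8.88e-09 by the authors' deposited table), while its introns 92 and 96 had 0.47 and 0.46. In Dst, another such linker, no intron was called, with values from -1.08 to 0.58.

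The other lists are set beside the 8.32% of all genes with a 2 h intron that were members and the 9.64% of all tested introns that were called. SR and related proteins gave 5 of 25 genes (Acin1, Clasrp, Ddx46, Sfswap and Son) with 15 introns, of which 0 rose and 1 fell, and core spliceosome genes gave 6 of 30, with 0 of 19 introns called in the authors' deposited table. In Acin1 the 3 introns had -0.24, -0.28 and -0.05, and in Eftud2, a spliceosomal GTPase, -0.26, 0.67 and -0.02. Clasrp, an SR-related protein that binds Clk kinases, had -0.68, -0.49 and 0.05, and the 4 introns of the splicing factor gene Prpf39 had -0.95, -0.09, 0.03 and 0.45. DNA repair genes gave 6 of 35, with 0 of 21 introns called, including the 5 introns of Ddb1 (from -0.83 to 0.01) and the 4 of Fancd2 (from -0.31 to 0.32). Cell cycle and replication genes gave 5 of 40, with 1 intron that rose and 3 that fell out of 16. Of Ccnt2, a cyclin of transcription elongation, intron 5 fell (-0.73, adjusted p 0.0423 by the authors' deposited table), and its introns 7 and 8 had -0.64 and -0.46. Chromatin regulators gave 4 of 50, with 3 that rose and 1 that fell out of 15, and the one that fell was intron 47 of Ep400 (-1.43, adjusted p 0.00342 by the authors' deposited table), whose neighbour across an exon of 222 bases, intron 46, had 0.05. Matrix and adhesion genes gave 4 of 13, with 2 of 15 introns that fell, hnRNP and FET genes 2 of 19 with 1 that rose, and translation genes 2 of 30 with none called. In Eif3a, a subunit of a translation initiation factor, intron 23 had the highest means, with 1374 reads in KH-CB19 and 1008 in DMSO (0.45, adjusted p 0.117 by the authors' deposited table), and in Gcn1l1, a regulator of translation under amino acid shortage, the ratios were -0.22, 0.33 and -0.34. No vesicle coat gene of 23 with a 2 h intron was a member.

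Genes with 5 introns spanned most of these patterns. Lrpprc had all 5 above 0, from 0.28 to 1.02, and its intron 32 rose (0.88, adjusted p 0.03 by the authors' deposited table), while intron 26 with 1.02 did not pass (adjusted p 0.187). Fam48a (Supt20 in the annotation) had all 5 below 0, from -0.46 to -0.04, and none was called. Srrt had 0.41, -0.29, 0.29, 0.58 and 0.76, Stag3 had values from -0.81 to 0.19, Ubr4 from -1.25 to -0.05 and Zfc3h1 from -0.09 to 0.35, with 0 introns called in these 4 genes in the authors' deposited table. In the chain of Utp20 the ratios were 0.60, 0.18, 0.00 and 0.94, and in that of Ints4 they were 0.38, 0.93, 0.05 and 0.63, and by the authors' deposited table none passed.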

How the data were processed

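Polyadenylated RNA of v6.5 mouse embryonic stem cells was sequenced in 4 groups of 2 libraries, 8 in all, and an untreated library was not used. Cufflinks 2.1.1, TopHat2 2.0.9 and DESeq are named per the submitters' processing notes, as are bedtools 2.17.0, Bowtie 1.0.0, SAMtools 0.1.19 and the mouse build mm9. Settings, the making of the expected counts and the rule behind the detained class are not given in the sources used here. Per the file headers, the authors deposited for each intron observed and expected mean counts at 0 h. For detained introns the authors deposited a normalised mean signal at 2 h in each group, a log2 value of KH-CB19 over DMSO and its adjusted p-value. Thinly covered introns hold a word in place of 0 h values. Only group means were used, so the authors' adjusted p-values, taken to be from DESeq, are the only tests, and the planned count model was not possible.

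Genes were read from the intron names. Starts in the table count from 0 and are given here from 1. Introns were matched to GENCODE M21 on GRCm38 by gene, chromosome, strand, length and a shared shift of position, within 1000 bases of the gene's usual shift, and 594 of 680 matched. Exon sequences come from GENCODE transcripts, and none from chromosome 18. The counting SE of a log2 ratio treats 2 times each normalised mean as reads and covers counting error only. Introns of a gene were within counting error where their weighted squared deviations from one mean stayed under the 95% point of the chi-square distribution. The variance shares come from a random-effects split into between and within genes, which was tested on simulated data. Python 3.11.15, numpy 2.4.6 and pandas 2.3.3 were used.

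The members, the 12 gene lists and the rules were chosen with earlier results of these data known. The text names genes with 5 or more introns, 2 or more called introns, calls in both directions or 4 consecutive numbers. It also names the 5 narrowest and 5 widest ranges among genes with at least 50 reads in every intron, and up to 2 genes per list with the most introns. Some genes that this rule would name are not reported here. Other genes named here, such as Macf1, Mdn1, Nup88, Nup153, Nup210, Nap1l1, Upf1, Dnajc13 and Llgl2, were chosen after their values were seen. Alternatives were an adjusted p of 0.01, a mean of at least 50 reads, pseudocounts of 1 and 10, other minimum numbers of introns, overlapping introns left out, and no centring at 0 h.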

Additional observations from a re-analysis of the deposited data

How the results depend on the processing

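The number of introns that rose, 43, was 26 at an adjusted p of 0.01, 21 in genes with 4 or more 2 h introns and 109 in genes with 2 or more. The number that fell, 39, was 27 at an adjusted p of 0.01, 26 among introns with at least 50 reads (42 rose there), 10 in genes with 4 or more and 81 in genes with 2 or more; fewer or more introns enter these counts by construction. The share of member introns above 0 at 0 h was 38.5% after centring and 9.33% without it, since the median over all introns is not 0. The share of genes with introns on one side of 0 lay between 35% and 44.4%, and the variance share between genes between 28.6% and 58.7%, under the alternatives run. Among single introns and genes named, 15 introns lost the call at 0.01, the log2 ratios of 3 introns moved beyond counting error with a pseudocount of 10, and none reversed. Leaving out single libraries was not run, since the table holds group means. No paired analysis was possible because the deposited columns are group means without replicate numbers. The spread between libraries behind each value is unknown, and introns with few reads, such as intron 98 of Mdn1, carry large counting errors.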
